A study of Sus scrofa with 11 samples.

Results

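The cytochrome P450 genes were followed in full-thickness skin wounds of Yucatan minipigs as the rows of the expression table whose symbol begins with CYP, a number and a letter, together with POR, the reductase that supplies the microsomal P450s with electrons. There were 38 such genes, 37 P450 genes and POR, among 30376 genes in the table. Of these, 24 reached a level of at least 0.1 FPKM (reads scaled by gene length and a divisor per library) in 1 wound or more and 14 did not, including 7 without a single read in any wound. A filter on low values, which asked for 0.5 FPKM or more in 4 or more wounds, was passed by 16 of the 24, and only those 16 entered the test across all genes.

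The diabetic group was 7 wounds of a female minipig made diabetic with streptozotocin (STZ), a toxin of pancreatic beta cells, at 6 months of age. It was kept on insulin until a week before wounding. The non-diabetic group was 4 wounds of another female minipig that was not made diabetic and whose age is not given in the sources used here. The wounds were made with a punch in the skin of the back and sampled on day 10, with 1 library of polyA RNA per wound. Each group was thus 1 animal, and STZ and insulin are described for the diabetic animal only. Diabetes, these treatments and the animal cannot be told apart, and the p-values measure the spread between wounds of an animal. In whole tissue, fewer cells of a type and less RNA per cell cannot be told apart either.

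P450s are haem enzymes that insert an oxygen atom into fat-soluble molecules. Families CYP1 to CYP3 oxidise drugs, plant compounds and pollutants and are best known from liver, where the receptors AHR, PXR and CAR induce them. Other P450s have internal substrates: CYP7, CYP8, CYP27 and CYP39 enzymes turn cholesterol into bile acids, CYP11, CYP17, CYP19 and CYP21 enzymes make steroid hormones, CYP26 enzymes degrade retinoic acid, and CYP2R1, CYP27B1 and CYP24A1 activate and inactivate vitamin D. Members of CYP2J and CYP4 act on fatty acids. In skin, keratinocytes make and degrade active vitamin D and retinoic acid, and CYP1A1 is the textbook gene induced by AHR.

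Depth was 28314785 to 40168372 reads on genes per wound, so that a single read on a 2 kb gene was worth between 0.0112 and 0.0194 FPKM. Diabetic wound 4 and non-diabetic wound 1 stood apart from the rest on the first principal component of all genes. Summed over 12 keratinocyte markers, they had 50.1 and 319 FPKM, against 1797 to 6991 FPKM in the other 9. Diabetic wound 3 held 2009 FPKM of 8 skeletal muscle markers, against at most 12.9 elsewhere. Of 9 liver markers, 6 reached 0.1 FPKM in some wound and their sum was 75.8 to 120 FPKM, nearly all of it APOA1 (101 ± 14.4 FPKM, SD, n = 7, and 95.4 ± 4.25 FPKM, SD, n = 4), while ALB had at most 0.0805 FPKM and FGA was at 0. Of 7 adrenal and gonadal markers, 5 reached 0.1 FPKM, with a sum of 0.507 to 3.64 FPKM in diabetic and 0.520 to 2.28 FPKM in non-diabetic wounds, led by HSD3B1 and STAR, while FSHR was at 0.

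The 250 bases upstream of the annotated start, on Sscrofa11.1, are shown for 4 xenobiotic genes: CYP1A1, whose groups did not overlap, the neighbours CYP3A29 and CYP3A46, whose values differed, and CYP2B22. Capitals mark, on either strand, GCGTG (the core to which AHR binds, 31.2% of all 20664 protein-coding promoters), AGGTCA (the hexamer that nuclear receptors such as PXR and CAR bind, 12.3%) and TATAAA (the TATA box, 10.4%). A match is a run of letters and not a shown binding site. CYP1A1, at chr7:58802637-58802886 on the plus strand, had 3 GCGTG cores and a TATA box. CYP3A29, at chr3:6738252-6738501, and CYP3A46, at chr3:6677661-6677910, both on the plus strand, each had 1 AGGTCA hexamer and 1 TATA box. CYP2B22, at chr6:49173873-49174122 on the minus strand, had 1 GCGTG core.
CYP1A1: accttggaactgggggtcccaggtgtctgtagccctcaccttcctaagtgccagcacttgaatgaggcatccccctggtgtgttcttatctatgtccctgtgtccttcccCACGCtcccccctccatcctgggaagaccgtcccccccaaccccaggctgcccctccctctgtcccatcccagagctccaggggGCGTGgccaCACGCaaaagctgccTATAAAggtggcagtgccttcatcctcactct
CYP3A29: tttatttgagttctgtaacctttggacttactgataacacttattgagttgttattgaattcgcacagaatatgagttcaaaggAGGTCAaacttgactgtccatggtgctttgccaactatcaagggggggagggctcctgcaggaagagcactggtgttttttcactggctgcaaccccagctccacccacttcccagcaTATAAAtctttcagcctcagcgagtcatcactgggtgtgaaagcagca
CYP3A46: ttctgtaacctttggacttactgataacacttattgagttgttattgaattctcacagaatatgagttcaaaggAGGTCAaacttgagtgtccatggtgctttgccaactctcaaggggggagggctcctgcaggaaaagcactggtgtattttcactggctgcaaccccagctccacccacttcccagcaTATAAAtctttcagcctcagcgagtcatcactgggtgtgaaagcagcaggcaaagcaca
CYP2B22: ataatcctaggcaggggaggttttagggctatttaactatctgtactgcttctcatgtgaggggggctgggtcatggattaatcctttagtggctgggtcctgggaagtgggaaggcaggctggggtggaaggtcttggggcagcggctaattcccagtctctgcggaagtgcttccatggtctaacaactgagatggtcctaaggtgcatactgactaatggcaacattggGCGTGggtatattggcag
The CYP3A29 and CYP3A46 windows aligned over 240 positions with 97.5% identity.

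The order of levels among the members was not the same in both groups. In diabetic wounds the highest means were those of CYP3A29 (16.3 FPKM), POR (15.7), CYP2J34 (10.3), CYP2B22 (9.45) and CYP20A1 (9.03 FPKM). In non-diabetic wounds they were those of POR (14.1 FPKM), CYP20A1 (10.2), CYP2J34 (8.44), CYP3A29 (7.44) and CYP39A1 (6.09 FPKM). Averaged over the 11 wounds, POR stood at 15.1 FPKM, CYP3A29 at 13.1, CYP2J34 at 9.64, CYP20A1 at 9.45, CYP2B22 at 6.95, CYP3A46 at 6.37 and CYP39A1 at 5.11. With both groups pooled, POR and CYP3A29 overlapped across wounds (12.4 to 19.5 against 5.69 to 19.2 FPKM). So did CYP2J34 and CYP20A1 (6.13 to 12.5 against 7.99 to 12.4 FPKM). In the non-diabetic wounds alone, POR (12.4 to 15.5 FPKM) lay above CYP3A29 (5.69 to 11.9 FPKM). Whether neighbours in that order differ was not tested. Below them came CYP2R1 (2.97), CYP2A19 (2.56), CYP2C91 (1.97), CYP7A1 (1.73), CYP4V2 (1.64), CYP4F55 (1.55) and CYP27A1 (1.51 FPKM), then CYP27B1 (0.998) and CYP2D25 (0.747 FPKM). The remaining 8 of the 24 had means of 0.0248 to 0.330 FPKM.

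**Figure D1:**
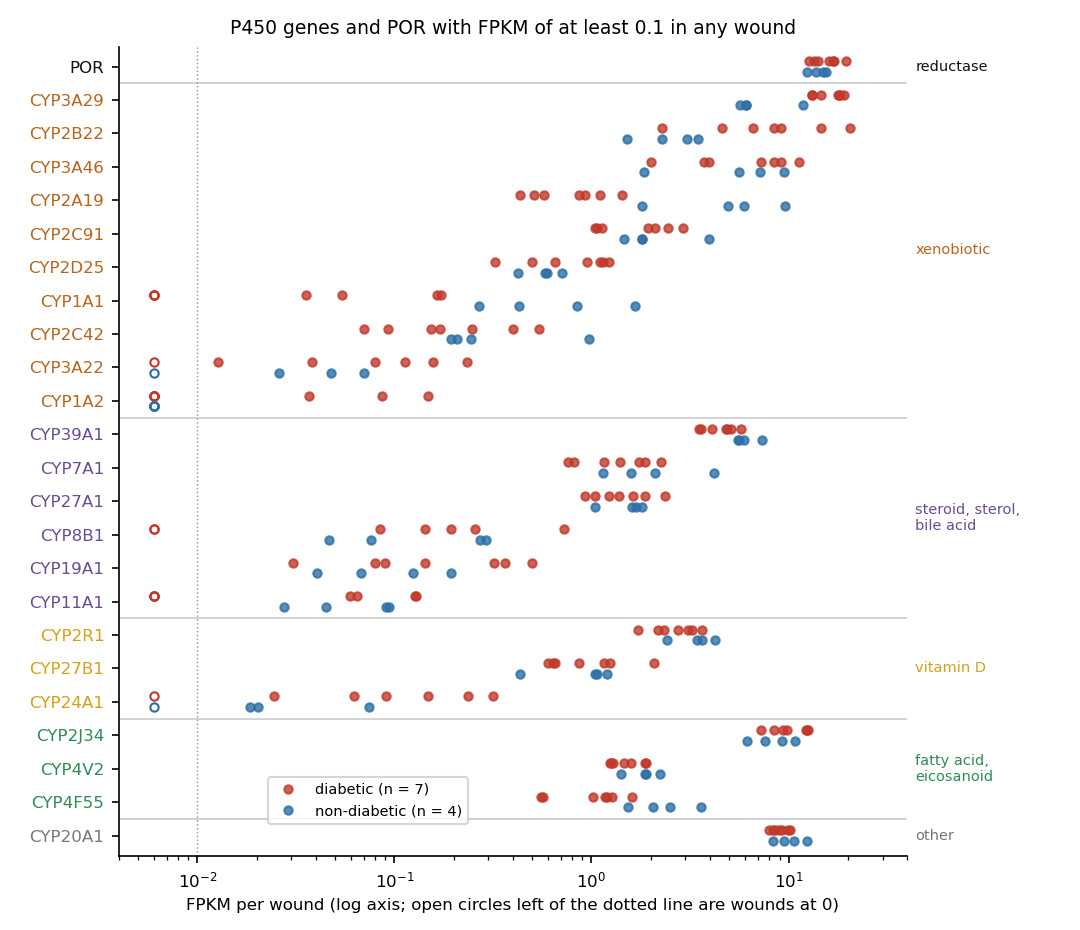
FPKM per wound on a log axis for POR and the 23 P450 genes that reached 0.1 FPKM in any wound, sorted by class, with diabetic wounds in red and non-diabetic wounds in blue. In CYP3A29, CYP2A19 and CYP1A1 the colours do not overlap, and open circles mark wounds at 0.

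Of the 16 genes in the fit, 1 was called higher in diabetic wounds and 1 lower (limma on log2(FPKM + 0.5), with the difference between group means as log2FC and SE its standard error; calls needed an adjusted p below 0.05 and a log2FC beyond 0.5 either way). Over all 13956 genes tested, 1.35% were called higher and 1.66% lower. Both called members, CYP3A29 and CYP2A19, belonged to the xenobiotic class. In 2 of the 16, the same pair, every diabetic wound lay on 1 side of every non-diabetic wound, against 5.65% of the genes tested (2.69% upward and 2.96% downward). CYP1A1 was separate as well but below the filter, where 3.03% of 6044 genes were, so that 3 of the 24 members at 0.1 FPKM were separate against 4.86% of 20000 genes at that level. For single genes, an exact permutation test (two-sided) ran through the 330 ways to split the wounds, and its smallest possible p is 0.00303.

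**Figure D2:**
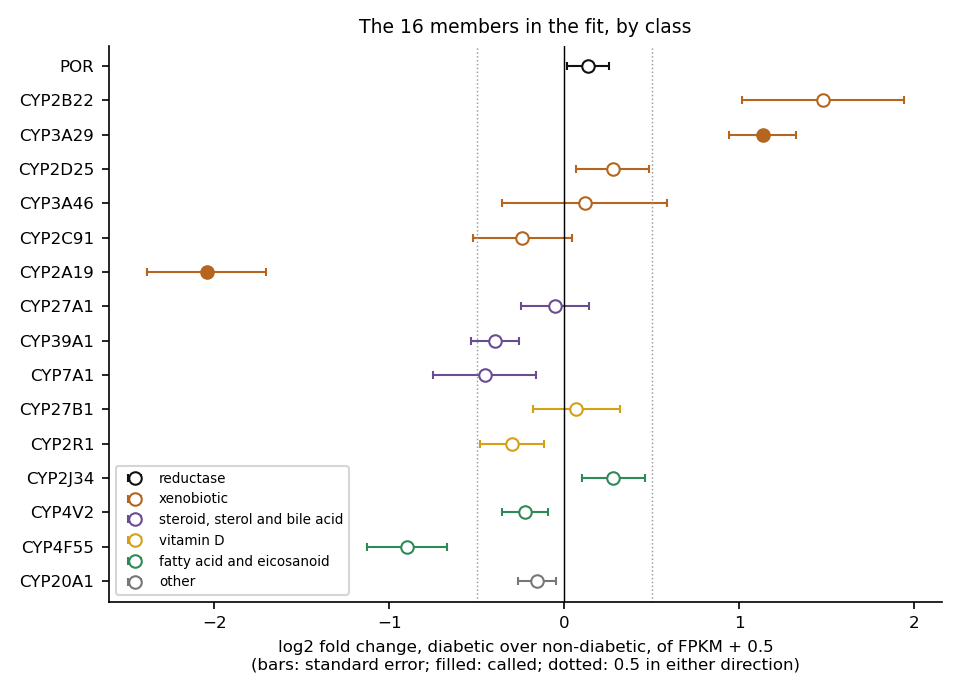
Log2 fold change of FPKM + 0.5, diabetic over non-diabetic, with its standard error for the 16 members in the fit, coloured by class. The called genes are filled: CYP3A29 at 1.13 and CYP2A19 at -2.04, both xenobiotic, while the steroid and vitamin D genes lie between -0.46 and 0.07.

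CYP3A29 belongs to CYP3A, the family that metabolises many drugs, and lies on chromosome 3 from 6738502 to 6778121. Diabetic wounds had from 13.2 to 19.2 FPKM with a median of 17.9, and the 4 non-diabetic wounds had 6.07, 5.69, 6.11 and 11.9 FPKM. No diabetic wound fell to the level of a non-diabetic wound, and non-diabetic wound 4 was the nearest. The means were 16.3 ± 2.58 FPKM (SD, n = 7) and 7.44 ± 2.98 FPKM (SD, n = 4), 2.196-fold higher in diabetic wounds. Testing gave a log2FC of 1.13 in limma (SE 0.19, adjusted p = 0.00950), with an exact two-sided permutation p of 0.00303. Without diabetic wound 4 and non-diabetic wound 1, the log2 fold change was 1.02 and the adjusted p 0.0534 (limma), just past the threshold, so the call did not hold in the 9 other wounds.

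CYP3A46 lies 28.6 kb upstream of CYP3A29 on the same strand, with 92.9% identity in coding sequence, and is described in full because of that neighbour. Its values ranged from 1.99 to 11.4 FPKM with a median of 7.23 in diabetic wounds and were 1.85, 9.53, 7.19 and 5.58 FPKM in non-diabetic wounds. The groups overlapped throughout, and the lowest value of each group was in diabetic wound 4 and non-diabetic wound 1, the wounds poor in keratinocyte markers. It had a log2FC of 0.12 in limma (SE 0.47, adjusted p = 0.929), and it turned negative, to -0.31, without non-diabetic wound 1. CYP3A29 did not share the dip: diabetic wound 4 had its highest level of all, 19.2 FPKM. Within a wound, the ratio of CYP3A29 to CYP3A46 ran from 1.57 to 9.61 (median 2.50) in diabetic wounds and was 3.28, 0.597, 0.849 and 2.13 in non-diabetic wounds, so the ratios overlapped. Whether the changes of the pair differ was not tested. Another gene of the cluster, CYP3A22, with 87.0% coding identity to CYP3A29, had 42 reads in all diabetic and 9 in all non-diabetic wounds. As reads of such similar genes can be split between them, their values carry that uncertainty.

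CYP2A19 is the pig CYP2A, of the family that oxidises coumarin and nicotine and, in boar liver, skatole. It lies on chromosome 6 from 49056579 to 49064111. Diabetic wounds had 0.434 to 1.44 FPKM with a median of 0.862, against 5.93, 9.62, 4.93 and 1.81 FPKM in non-diabetic wounds. The highest diabetic wound lay under the lowest non-diabetic wound, again wound 4, which was nearest to the other group in CYP3A29 also. Means were 0.836 ± 0.360 FPKM (SD, n = 7) and 5.57 ± 3.22 FPKM (SD, n = 4), 6.67-fold lower in diabetic wounds. Its log2FC was -2.04 in limma (SE 0.34, adjusted p = 0.00837), with an exact permutation p of 0.00303. Unlike CYP3A29, it was still called without diabetic wound 4 and non-diabetic wound 1 (limma: log2FC -1.97, adjusted p = 0.0454). Its nearest P450 sequence had 69.4% coding identity, and a long non-coding RNA overlaps it on the other strand with 0 to 21 reads per wound.

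CYP2B22, the pig CYP2B, a family known for induction through CAR, lies in the same cluster as CYP2A19, on chromosome 6 from 49158175 to 49173872. It had 2.28 to 20.4 FPKM with a median of 8.45 in diabetic wounds, and 3.05, 3.48, 2.28 and 1.52 FPKM in non-diabetic wounds. Diabetic wound 1 sat among the non-diabetic wounds and the other 6 lay above all 4 of them. Means were 9.45 ± 6.21 FPKM (SD, n = 7) and 2.58 ± 0.867 FPKM (SD, n = 4), 3.66-fold apart. The log2 fold change of 1.48 had a standard error of 0.46 and an adjusted p of 0.110 (limma), so it was not called, although the exact permutation p was 0.0242. Without diabetic wound 1 it was called higher, with a log2 fold change of 1.74 and an adjusted p of 0.0286 (limma). The value is uncertain, since the adjacent gene LOC102165015 has 99.8% coding identity. That copy, with 0.528 ± 0.269 FPKM (SD, n = 7) and 0.112 ± 0.0156 FPKM (SD, n = 4), was below the filter, and its diabetic wounds all lay above the non-diabetic ones. The means of CYP2B22 and CYP2A19 differed in opposite directions, although only CYP2A19 was separate between the groups. The ratio of CYP2B22 to CYP2A19 within a wound was 4.46 to 21.9 in diabetic and 0.362 to 0.836 in non-diabetic wounds. This pair was chosen after its values were seen and was not tested.

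CYP1A1 lies on chromosome 7 from 58802887 to 58809155, back to back with CYP1A2, and was low throughout. Diabetic wounds had 0 to 0.172 FPKM with a median of 0.0354, against 0.268, 0.427, 1.66 and 0.849 FPKM in non-diabetic wounds. In reads, that was 0 to 21 per diabetic wound, 3 of them at 0, and 22 to 166 per non-diabetic wound. Every diabetic wound was thus below every non-diabetic one, and diabetic wound 6 (0.172 FPKM, 13 reads) and non-diabetic wound 1 (0.268 FPKM, 22 reads) lay nearest to each other. Means were 0.0608 ± 0.0761 FPKM (SD, n = 7) and 0.801 ± 0.623 FPKM (SD, n = 4), 13.2-fold lower in diabetic wounds, with an exact permutation p of 0.00303. The gene did not pass the filter used, so its limma value is from the fit with no filter: a log2FC of -1.11 with an adjusted p of 0.0384. CYP1A2, its neighbour with 82.9% coding identity, had 21 reads in 3 diabetic wounds and 0 in all non-diabetic wounds (exact permutation p = 0.321).

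**Figure D3:**
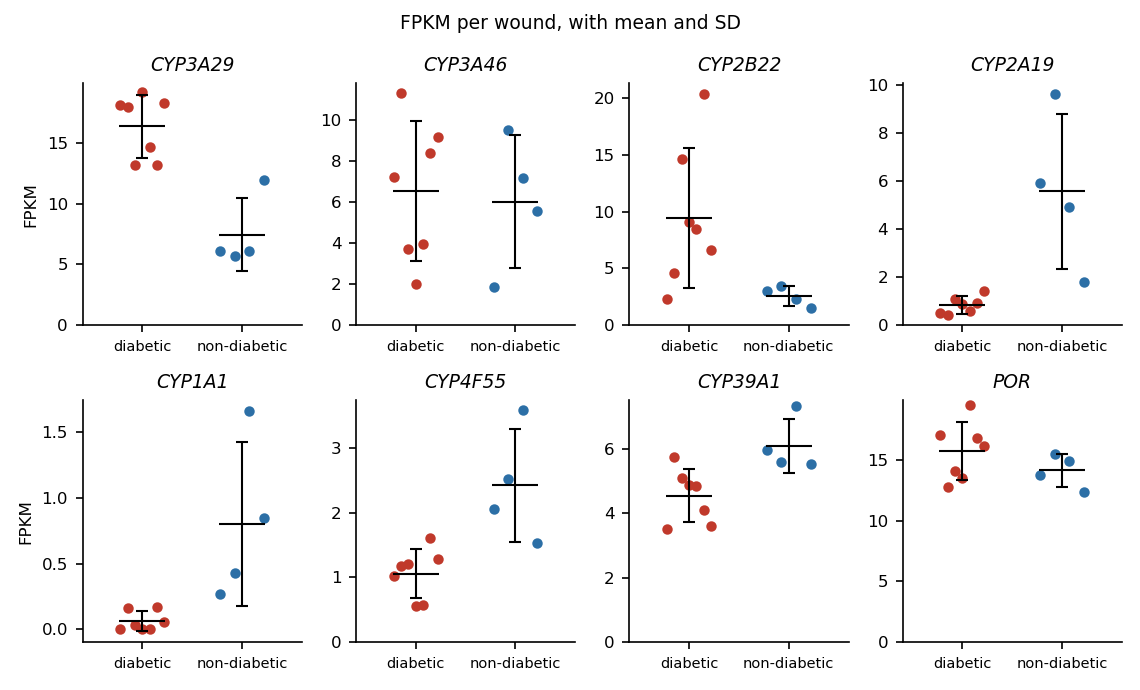
FPKM per wound (dots) with mean and SD (bars) for 8 genes in 7 diabetic and 4 non-diabetic wounds. CYP3A29 is separate upward, CYP2A19 and CYP1A1 are separate downward, and CYP2B22, CYP3A46, CYP4F55, CYP39A1 and POR overlap.

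The other xenobiotic genes did not pass the test. CYP2D25, of the CYP2D family that metabolises many drugs, had means of 0.844 ± 0.352 and 0.577 ± 0.116 FPKM (limma: log2FC 0.28, adjusted p = 0.529). CYP2C91, annotated as a transcribed pseudogene, had 1.81 ± 0.743 and 2.25 ± 1.14 FPKM (limma: log2FC -0.24, adjusted p = 0.708). It overlaps CYP2C42 on the opposite strand, and both had their highest value of all in non-diabetic wound 4, 3.94 FPKM in CYP2C91 and 0.970 FPKM in CYP2C42. Within the overlap, reads of the pair cannot be told apart unless counting used the strand, which is not given in the sources used here. CYP2E1 and the CYP2C genes CYP2C32, CYP2C33, CYP2C34 and CYP2C36, of families best known from liver, had no read in any wound. By counting error alone, this allows up to 3 reads per wound. CYP2C49 had 2 reads in all. These CYP2C genes have 94.8% to 98.9% coding identity to another P450 gene, so the split of reads between copies is uncertain, also for values of 0.

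Among the steroid, sterol and bile acid genes none was called. Of the members in this class, CYP39A1, which hydroxylates 24-hydroxycholesterol, was the most abundant. It had 3.53 to 5.73 FPKM with a median of 4.84 in diabetic wounds and 5.95, 5.58, 7.32 and 5.53 FPKM in non-diabetic wounds. Diabetic wound 2 alone reached into the non-diabetic range. The means, 4.54 ± 0.819 FPKM (SD, n = 7) and 6.09 ± 0.836 FPKM (SD, n = 4), gave a log2FC of -0.40 in limma (SE 0.14, adjusted p = 0.145) and an exact permutation p of 0.0182.

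CYP7A1, the rate-limiting enzyme of bile acid synthesis in liver, had 0.758 to 2.25 FPKM with a median of 1.39 in diabetic wounds and 4.21, 1.59, 2.10 and 1.15 FPKM in non-diabetic wounds. The groups overlapped and non-diabetic wound 1 was the highest (limma: log2FC -0.46, SE 0.29, adjusted p = 0.453). The gene overlaps SDCBP, which is transcribed from the other strand at 38.2 FPKM in both groups, so its reads are uncertain. CYP27A1, a mitochondrial sterol hydroxylase, had means of 1.49 ± 0.502 and 1.53 ± 0.333 FPKM (limma: log2FC -0.05, adjusted p = 0.923).

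Genes that make steroid hormones were scarcely detected. CYP19A1, the aromatase that makes oestrogens, had 0.0307 to 0.498 FPKM in diabetic and 0.0406 to 0.193 FPKM in non-diabetic wounds, 132 and 34 reads in all (exact permutation p = 0.288). CYP11A1, which cleaves the cholesterol side chain, had 52 and 34 reads in all. CYP17A1, which both androgen and cortisol synthesis need, had 1 read in the diabetic and 3 in the non-diabetic wounds, and CYP21A2, a step of cortisol synthesis, had 3 and 4. The aromatase copies CYP19A2 and CYP19A3, with 95.9% and 92.8% coding identity to CYP19A1, were at most 0.0154 and 0.0370 FPKM. CYP8B1, a bile acid hydroxylase of 1 exon inside ZNF662 on the other strand, had means of 0.200 ± 0.250 and 0.172 ± 0.129 FPKM.

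The only retinoid member by symbol, CYP26A1, which degrades retinoic acid, had 10 reads in 4 diabetic wounds and none in the non-diabetic wounds. Its highest value was 0.0227 FPKM, and no fold can be given against a group at 0. Another enzyme of that family, CYP26B1, stands in the table under the symbol LOC100521659 and was detected in every wound, at 4.01 ± 1.42 FPKM (SD, n = 7) and 4.90 ± 2.09 FPKM (SD, n = 4) with overlapping groups (limma: log2FC -0.26, adjusted p = 0.694).

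All 3 vitamin D members were detected and overlapped between the groups. CYP2R1, the first hydroxylase of the pathway, had 1.72 to 3.63 FPKM with a median of 2.76 in diabetic wounds and 2.42, 4.24, 3.42 and 3.65 FPKM in non-diabetic wounds (limma: log2FC -0.30, SE 0.18, adjusted p = 0.425). CYP27B1, which makes the active hormone, had 0.602 to 2.07 FPKM with a median of 0.865 in diabetic wounds and 0.435, 1.05, 1.20 and 1.06 FPKM in non-diabetic wounds (limma: log2FC 0.07, SE 0.25, adjusted p = 0.919). CYP24A1, which inactivates the hormone, had 0 to 44 reads per diabetic wound and 0, 2, 2 and 9 reads in the non-diabetic wounds, 4.44-fold apart in mean FPKM with an exact permutation p of 0.145. In each of these genes the lowest wound of its group was diabetic wound 4 among the diabetic and wound 1 among the non-diabetic, the wounds poor in keratinocyte markers. For CYP24A1 both were at 0. Among the genes in the fit, CYP3A46, CYP2R1 and CYP27B1 had this pattern, 3 of 16, against 14.8% of all genes tested, and CYP20A1 and CYP4V2 were highest in the same wounds, against 11.9%. These shares are near the background. The part of keratinocyte content in the values of these genes was not tested.

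**Figure D4:**
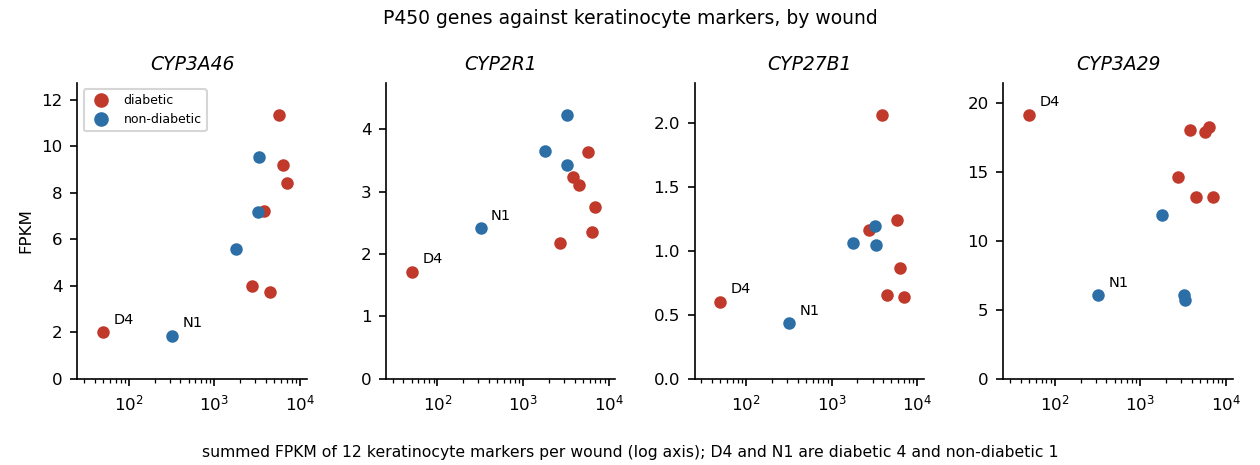
FPKM of CYP3A46, CYP2R1, CYP27B1 and CYP3A29 per wound against the summed FPKM of 12 keratinocyte markers on a log axis. Diabetic wound 4 (50.1 FPKM of markers) and non-diabetic wound 1 (319 FPKM) are the lowest of their groups in the first 3 genes, while CYP3A29 reaches 19.2 FPKM in diabetic wound 4.

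Set side by side, the genes classed as xenobiotic had the calls in both directions. None of the 5 genes in the fit classed as steroid or vitamin D was called, where 3.00% of all genes tested were called in either direction. The 6 xenobiotic genes in the fit had log2 fold changes from -2.04 to 1.48, with a median of 0.20 and a median absolute value of 0.71, and 4 were positive. The 5 steroid and vitamin D genes in the fit ran from -0.46 to 0.07, with a median of -0.30 and a median absolute value of 0.30, and 4 were negative. Over all genes tested the median was 0.01 and the median absolute value 0.17. Without non-diabetic wound 1, the medians of the same genes were -0.046 and -0.16. These are descriptions with 6 and 5 genes that matched the symbol rule and passed the filter. The difference between the classes was not tested.

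Levels were also summed per wound. The 16 xenobiotic genes together had 29.7 to 46.8 FPKM with a median of 34.9 in diabetic wounds and 19.7, 31.5, 24.4 and 27.2 FPKM in non-diabetic wounds, and only non-diabetic wound 2 lay within the diabetic range. The means were 36.3 ± 5.77 (SD, n = 7) and 25.7 ± 4.98 FPKM (SD, n = 4). The 14 steroid, retinoid and vitamin D genes together had 10.7 to 13.9 FPKM with a median of 11.6 in diabetic wounds and 15.0, 14.8, 15.9 and 13.0 FPKM in non-diabetic wounds. Here diabetic wound 2 and non-diabetic wound 4 overlapped. The means were 11.8 ± 1.09 (SD, n = 7) and 14.7 ± 1.18 FPKM (SD, n = 4). CYP3A29 and CYP39A1 make up much of these sums, which are given without a test. Both sums hold only genes that match the symbol rule. CYP51, a sterol P450 whose symbol lacks the second letter, is outside them, at 16.9 ± 6.31 (SD, n = 7) and 14.3 ± 5.83 FPKM (SD, n = 4). Its groups overlapped (limma: log2FC 0.23, adjusted p = 0.813). In diabetic wounds its mean was above the whole second sum, so the lower diabetic sum describes the chosen genes only.

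**Figure D5:**
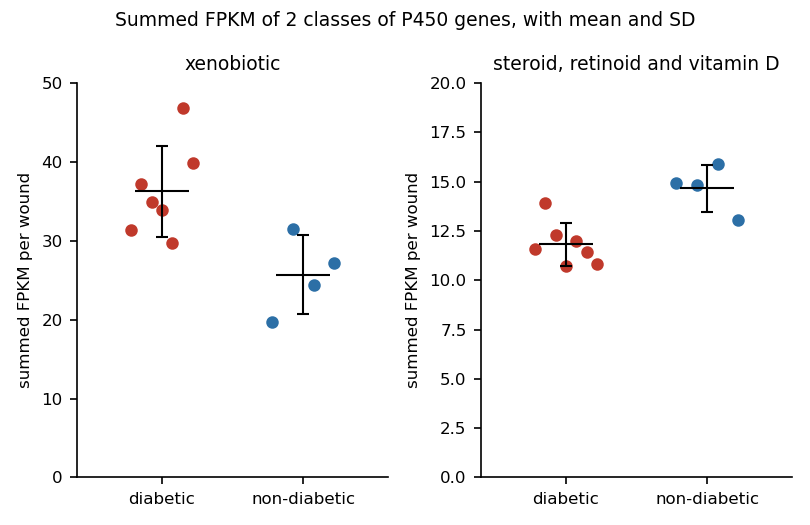
Summed FPKM per wound (dots) with mean and SD (bars) for the 16 xenobiotic genes and the 14 steroid, retinoid and vitamin D genes. The xenobiotic sum is 36.3 in diabetic and 25.7 in non-diabetic wounds and the other sum 11.8 and 14.7, and both overlap by single wounds.

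Of the fatty acid members, CYP2J34, an epoxygenase of arachidonic acid, had 7.27 to 12.5 FPKM with a median of 9.85 in diabetic wounds and 6.13, 9.22, 7.58 and 10.8 FPKM in non-diabetic wounds. These ranges overlapped widely (limma: log2FC 0.28, SE 0.18, adjusted p = 0.453). Its neighbour LOC100524940 has 92.3% coding identity, which makes the split of reads uncertain. CYP4V2, a hydroxylase of fatty acids mutated in a retinal dystrophy, had 1.24 to 1.89 FPKM with a median of 1.46, against 2.23, 1.90, 1.42 and 1.86 FPKM (limma: log2FC -0.22, SE 0.13, adjusted p = 0.409). Wounds of both groups were interleaved.

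CYP4F55 came nearest to a further call and was singled out for that after its values were seen. It had 0.556 to 1.61 FPKM with a median of 1.17 in diabetic wounds and 2.05, 2.51, 3.58 and 1.54 FPKM in non-diabetic wounds. Only diabetic wound 6 and non-diabetic wound 4 crossed. The means were 1.06 ± 0.382 FPKM (SD, n = 7) and 2.42 ± 0.869 FPKM (SD, n = 4), 2.29-fold lower in diabetic wounds, with a log2FC of -0.90 in limma (SE 0.23, adjusted p = 0.0562) and an exact permutation p of 0.00606. A copy in the same cluster, LOC102167481, matches 55.7% of its coding sequence with 98.3% identity, so the split of reads between them is uncertain. That copy, with 0.177 ± 0.0525 FPKM (SD, n = 7) and 0.695 ± 0.308 FPKM (SD, n = 4), was below the filter. Its diabetic wounds all lay below the non-diabetic ones. CYP4F2 and CYP4A24 had no read, and CYP4A21 had 1.

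POR and CYP20A1, a P450 without a known substrate, did not pass the test. POR had 12.7 to 19.5 FPKM with a median of 16.1 in diabetic wounds and 13.7, 15.5, 14.9 and 12.4 FPKM in non-diabetic wounds, with both groups interleaved (limma: log2FC 0.14, SE 0.12, adjusted p = 0.596). CYP20A1 had 7.99 to 10.2 FPKM with a median of 8.95, against 12.4, 8.32, 9.46 and 10.6 FPKM (limma: log2FC -0.16, SE 0.11, adjusted p = 0.505). Non-diabetic wound 1 was its highest.

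Genes that work with P450s mostly did not pass the test either, which called 1.35% of all genes tested higher and 1.66% lower. Of 9 electron partners, the cytochromes b5, ferredoxin and haem carriers that serve P450s, none was called, and PGRMC1, the most abundant, had 47.7 ± 3.99 and 43.9 ± 2.69 FPKM. FDX1, the ferredoxin of mitochondrial P450s, was higher in every diabetic wound (15.5 ± 2.18 against 10.7 ± 0.273 FPKM) with an adjusted p of 0.0295 (limma), but its log2 fold change of 0.498 fell just short of 0.5. It is named after its values were seen. None of the 8 tested genes of AHR and other xenobiotic receptors was called. AHR itself had 7.92 ± 2.33 and 9.15 ± 2.14 FPKM (limma: log2FC -0.21, adjusted p = 0.641), and its repressor AHRR had 1.48 ± 0.271 and 2.14 ± 0.758 FPKM (limma: log2FC -0.39, adjusted p = 0.247). PXR (NR1I2) had at most 0.0206 FPKM and was not tested. Of 10 tested genes of conjugation and epoxide hydrolysis, none was called, 8 had positive and 2 negative log2 fold changes, and the median was 0.55.

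Of 16 tested genes of retinoid handling, 1 was called: RDH10, the retinol dehydrogenase that starts retinoic acid synthesis, had 3.17 ± 0.706 and 5.30 ± 1.07 FPKM (limma: log2FC -0.66, adjusted p = 0.04997). CRABP2, the carrier of retinoic acid, was the most abundant at 378 ± 74.6 and 344 ± 31.4 FPKM. Of 16 tested genes of steroid and bile acid handling, TSPO, a cholesterol-binding protein of the outer mitochondrial membrane, was called higher, at 122 ± 10.1 against 82.7 ± 13.0 FPKM (limma: log2FC 0.56, adjusted p = 0.0176). No gene was called among 4 for vitamin D handling, led by PDIA3 at 449 ± 52.6 and 446 ± 37.3 FPKM, 11 of sterol synthesis, led by HSD17B7 at 21.8 ± 4.90 and 20.4 ± 3.11 FPKM, or 2 P450-like eicosanoid synthases, led by PTGIS at 10.1 ± 2.98 and 10.5 ± 1.39 FPKM.

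Markers of cell types were read beside these values, with 1.35% of all genes tested called higher and 1.66% lower. Of 9 macrophage markers, 3 were called higher in diabetic wounds and none lower: CD14, MRC1 and MARCO, with log2 fold changes of 0.76, 0.73 and 1.80. The most abundant was CD68 at 86.7 ± 22.4 and 65.4 ± 19.2 FPKM, and the summed level was 269 to 430 FPKM in diabetic and 164 to 287 FPKM in non-diabetic wounds. Of 12 keratinocyte markers, KRT15 was called higher (15.5 ± 7.32 against 3.35 ± 4.44 FPKM, log2 fold change 2.50, adjusted p = 0.0388, limma), and KRT5 led them at 1536 ± 933 and 1005 ± 621 FPKM. Of 8 tested adipocyte markers, LEP, which encodes the hormone leptin, was called lower (0.156 ± 0.156 against 1.31 ± 0.753 FPKM, log2 fold change -1.41, adjusted p = 0.0126, limma). LEP passed the filter mostly through the non-diabetic wounds, where it is high. FABP4 led the list at 403 ± 126 and 210 ± 58.6 FPKM. No marker was called among 4 sebaceous gland, 9 fibroblast, 8 endothelial, 2 hepatocyte and 2 skeletal muscle genes tested, and the most abundant genes of these lists were FADS2, COL3A1, PECAM1, APOA1 and ACTA1. ACTA1, a muscle actin, had 957 FPKM in diabetic wound 3 and did not pass the filter. None of the 7 adrenal and gonadal markers passed the filter. The part of these cells in the levels of CYP3A29, CYP2A19, CYP2B22 and CYP1A1 was not tested.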

How the data were processed

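RNA of 11 wounds, 7 diabetic and 4 non-diabetic, was sequenced from polyA libraries. The submitters' processing notes name fastp, HISAT2 2.2.1, StringTie 2.2.3 and featureCounts 2.0.6 with Sscrofa11.1. The authors deposited 1 FPKM value per gene and wound, scaled by gene length and a divisor per library, so low genes rest on few reads. The strand setting of the counting and the FPKM formula are not given in the sources used here. Whole reads were recovered from the FPKM steps, 100% within 0.05 reads. The divisor of a library was 0.854 (non-diabetic wound 1) to 1.18 (diabetic wound 2) times its reads on genes. The scaling was thus not by those reads alone. Identifiers matched the NCBI annotation of Sscrofa11.1 for 30335 of 30376 genes, from which promoters were read (pysam 0.24.0). Coding identity was computed with BLAST+ 2.17.0.

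Genes at 0.5 FPKM or more in 4 or more wounds were fitted with limma 3.58.1 (R 4.3.3) as log2(FPKM + 0.5), a scale that understates changes of low genes, with a trended variance and Benjamini-Hochberg adjustment over all 13956 genes. Unadjusted, 995 genes had a p under 0.05 with a log2 fold change beyond 0.5. The script was tested on simulated data. Groups came from the sample titles, and in the library names a suffix also differs between the groups, which cannot be told apart from them. The values of all 4 non-diabetic wounds, and the lowest, median and highest of the 7 diabetic wounds, are given for POR, called members, the 2 most abundant of each class and members whose groups do not overlap. CYP3A46 beyond its level, CYP4F55 beyond its level, the gene ratios and FDX1 were singled out after values were seen. Members, classes and lists were chosen with earlier results of these data known. Alternatives were other filters, pseudocounts, normalizations, weights, a side covariate, a replicate block, voom on recovered reads and leaving out wounds. Intervals and floors cover counting error only. Some list genes and 1 promoter sequence are not reported here.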

Additional observations from a re-analysis of the deposited data

Results flagged for a closer look

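In 3 of 47 groups of wounds examined, 1 wound lay far from the others of its group by Dixon's criterion, which chance gives in about 1 group in 20. CYP3A29 had 11.9 FPKM in non-diabetic wound 4, against 5.69 to 6.11 in the other 3. CYP2C42 had 0.970 FPKM in the same wound, against 0.194 to 0.245. CYP27B1 had 0.435 FPKM in non-diabetic wound 1, which was poor in keratinocyte markers, against 1.05 to 1.20. Without non-diabetic wound 4, the log2 fold change of CYP3A29 was 1.37 with an adjusted p of 0.000967 (limma).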

How the results depend on the processing

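CYP3A29 was called higher in 22 of 24 alternatives (log2 fold change 0.99 to 1.37) and CYP2A19 lower in 23 of 24 (-2.60 to -1.71). The count of members called higher, 1 as reported, was 2 with library weights and 0 without both diabetic wound 4 and non-diabetic wound 1, and 1 to 2 with single wounds left out (2 without diabetic wound 1, through CYP2B22). The count called lower, also 1, was 2 with no filter and with a filter at 0.1 FPKM (CYP1A1 added, which passed the latter only through the non-diabetic wounds, where it is high), 2 with quantile normalization and with library weights (CYP4F55 added), and 1 to 2 with single wounds left out (2 without diabetic wound 6, CYP4F55 again). The xenobiotic median of 0.20 was -0.061 with the filter at 0.1 FPKM, over 8 genes, and the steroid, retinoid and vitamin D median of -0.30 was -0.020 with no filter, over 14 genes, and -0.052 at 0.1 FPKM, over 7 genes. These filters change which genes enter. With the same genes, the medians were -0.046 and -0.16 without non-diabetic wound 1, 0.033 and -0.17 with library weights, and ranged from -0.046 to 0.36 and from -0.36 to -0.16 with single wounds left out.

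Changes of sign occurred in 4 genes that were never called. With library weights, CYP27A1 was 0.015, CYP27B1 -0.14 and CYP3A46 -0.17. Without both diabetic wound 4 and non-diabetic wound 1 they were 0.013, -0.056 and -0.093. Without single wounds, CYP27A1 ranged from -0.18 to 0.022, CYP27B1 from -0.12 to 0.16, CYP3A46 from -0.31 to 0.38 and CYP2C91 from -0.38 to 0.017 (the last without non-diabetic wound 4). The cause was not tested.

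Replicate numbers did not pair the wounds: deviations of same-numbered wounds correlated at -0.27, 0.22, 0.07 and -0.48. With the replicate block, 0 members were called higher and 0 lower (limma), 11 and 5 genes of all tested were, against 188 and 231, and CYP3A46 was -0.049. Library weights gave 406 and 416. With 1 animal per group and few reads on the low members (0 to 21 per diabetic wound for CYP1A1), small differences in these were not detectable at this depth.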

Other observations

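P450 genes also stand in the table under other symbols, described here after their values were seen. Of 48 such genes, 28 reached 0.1 FPKM and 16 entered the fit. None of the 16 was called higher and 2 were called lower (limma), against 1.35% and 1.66% of all genes tested. Every diabetic wound lay above every non-diabetic wound in 1 of the 16 and below in 2, against 2.69% and 2.96%. The 1 above, LOC100739101, and 1 of the 2 below, LOC100522145, passed the filter only through the group where they are high. For these, separation came with entry into the fit, so the counts cannot be read against those shares. LOC100518620, described as CYP2U1, a fatty acid hydroxylase, had 3.13 ± 0.555 FPKM (SD, n = 7) and 5.22 ± 0.743 FPKM (SD, n = 4), lower in every diabetic wound (log2 fold change -0.66, adjusted p = 0.0186, limma). LOC100523909, described as CYP4B1, had 2.37 ± 1.25 and 6.13 ± 2.18 FPKM with overlapping groups (-1.25, adjusted p = 0.0447, limma). LOC100625479, described as CYP1B1, an AHR target like CYP1A1, had 5.35 ± 1.21 and 3.22 ± 0.700 FPKM (0.65, adjusted p = 0.0658, limma), not called. Of the others not called, LOC100739101, described as CYP4F6-like, was higher in every diabetic wound, at 0.915 ± 0.416 and 0.287 ± 0.150 FPKM (0.82, adjusted p = 0.0547, limma). It passed the filter only through the diabetic wounds, where it is high. LOC100522145, described as taurochenodeoxycholic 6 alpha-hydroxylase, a bile acid enzyme, was lower in every diabetic wound, at 0.0607 ± 0.0758 and 2.00 ± 2.76 FPKM (-1.65, adjusted p = 0.0609, limma), and passed the filter only through the non-diabetic wounds.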
